A study of Arabidopsis thaliana with 4 samples.

Results

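The 10 genes described here make the wax of the *Arabidopsis thaliana* cuticle, the lipid layer that covers the shoot epidermis and limits water loss. They were chosen by their known function, as the loci of CER1, CER2, CER3, CER4, KCS1, KCS5, KCS6, KCR1, MAH1 and WSD1, and all 10 were found as rows of their own among the 32878 rows of the deposited table, none merged with a neighbouring gene. Their RNA was measured by RNA sequencing of whole seedlings of the *daz3 tree1* double mutant in the Columbia background, in which the label names the zinc-finger genes DAZ3 and TREE1 as mutated. Seedlings were grown in darkness at 24 °C for 3 days and then exposed for 4 hours to 10 ppm ethylene in hydrocarbon-free air or to that air alone, with 2 libraries from ethylene and 2 from air. Every seedling carried both mutations and no wild type was analysed here, so the values describe the mutant only.

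Wax starts from fatty acids that the elongase complex of the endoplasmic reticulum extends, unit by unit, into very-long-chain acyl-CoAs. In each round a 3-ketoacyl-CoA synthase (KCS) condenses, a ketoacyl reductase reduces, a dehydratase removes water and an enoyl reductase finishes the cycle. The acyl chains then leave by an alkane-forming branch, through CER1 and CER3, or by an alcohol-forming branch, through CER4, whose alcohols WSD1 joins to fatty acids as wax esters. ABC transporters and lipid transfer proteins carry the products to the surface.

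The deposited table gives 1 FPKM value per group, a level per transcript length scaled by library depth, so neither the spread between libraries nor their depth can be given. Nothing in the labels tells whether the libraries of a group came from separate cultures, so the authors' p-values may rest on technical spread only. A row was called when its deposited p-value, adjusted by the Benjamini-Hochberg method over 18696 tested rows, was below 0.05. The 95% intervals given with log2 fold changes are those implied by the deposited p-values under a normal approximation. As a check of the labels, the mutated gene TREE1 (AT4G35610) was listed at 0.327 FPKM in ethylene and at 0 in air and DAZ3 (AT4G35700) at 0 in both, which without a wild type does not show whether these levels are lower than normal. In bulk seedlings, fewer cells of a type and less RNA per cell cannot be told apart.

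None of the 10 wax genes was called in either direction. Of 9 that the authors tested, 0 were called higher, against 2.17% of all tested rows, and 0 lower, against 4.18%. At an unadjusted deposited p below 0.05, 3 were higher (CER1, KCS6 and KCR1), against 7.74% of all tested rows, and 0 were lower, against 11%. At any p, 6 of the 9 had the higher value in ethylene, against 48% of all tested rows. The median log2 fold change of the 9 was 0.20, beside -0.022 over all tested rows. The sign of this median depends on the scaling. All 13 genes of a list of commonly used reference genes had higher values in ethylene, with a median log2 fold change of 0.25. With this median subtracted (scaling to the reference genes), the median of all tested rows was -0.28 and that of the wax genes was -0.058. On that scale 1 of the 9, CER3, was called lower and 0 higher. Of all 18696 tested rows, 2728 were called lower and 114 higher on it.

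**Figure D1:**
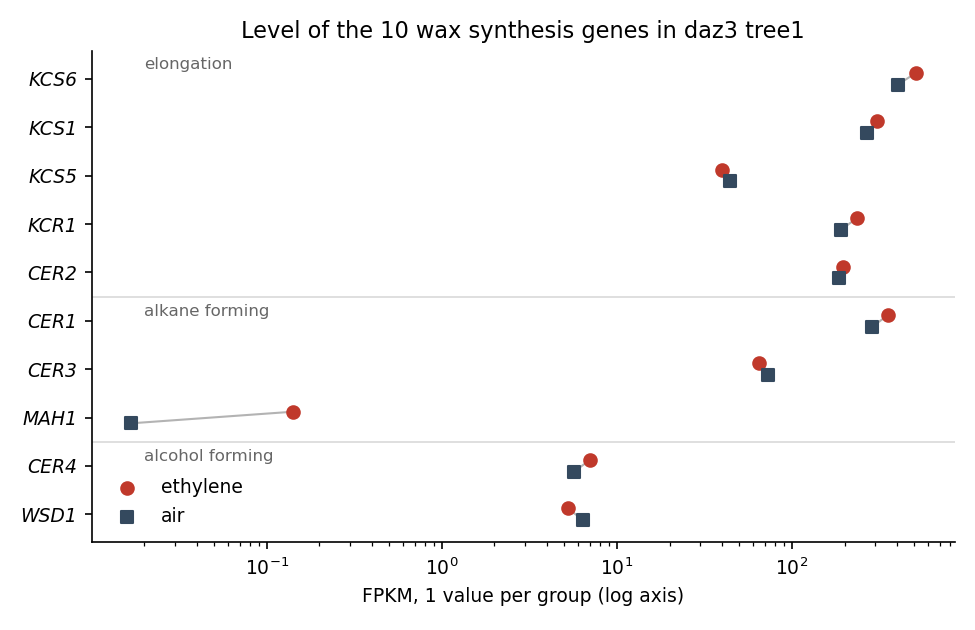
Levels of the 10 wax synthesis genes in *daz3 tree1* seedlings, in FPKM on a log axis, with 1 value per group from the authors (red circles, ethylene; dark squares, air), grouped by role. Levels within a group differ by orders of magnitude between genes, from 508 FPKM in ethylene for KCS6 to 0.141 FPKM for MAH1, while both groups lie close together for the 9 tested genes.

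The genes of chain elongation were among the most abundant. KCS6 (AT1G68530, also CER6), the condensing enzyme known as the main one for wax in shoots, had 508 FPKM in ethylene and 403 FPKM in air, the highest level of the 10 in both groups. Its log2 fold change was 0.34, with an implied interval of 0.062 to 0.61 (Benjamini-Hochberg adjusted p = 0.140 from the authors' p). KCS1 (AT1G01120), another condensing enzyme of wax synthesis, had 306 FPKM in ethylene and 267 FPKM in air, and its interval of -0.080 to 0.47 on the log2 scale included no difference. KCS5 (AT1G25450, also CER60), a close relative of KCS6, was far less abundant, at 40.1 FPKM in ethylene and 44.5 FPKM in air (log2 fold change -0.15, interval -0.49 to 0.18). The level of KCS6 was thus 12.7 times that of KCS5 in ethylene and 9.05 times in air. Their coding sequences are 81.3% identical over 1479 aligned bases in the reference, and their longest identical stretch is 23 bases. The sources used here do not give how reads that match both genes were counted.

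KCR1 (AT1G67730), the ketoacyl reductase of the complex, had 234 FPKM in ethylene and 191 FPKM in air. Its log2 fold change of 0.29 had an implied interval of 0.0099 to 0.57 (Benjamini-Hochberg adjusted p = 0.246 from the authors' p). CER2 (AT4G24510), a protein of the BAHD acyltransferase family that the elongase needs for the longest chains, had nearly the same level in both groups, 195 FPKM in ethylene and 186 FPKM in air. Its log2 fold change was 0.070, with an interval of -0.33 to 0.47.

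The alkane-forming genes differed from each other in level. CER1 (AT1G02205) and CER3 (AT5G57800) act together to turn very-long-chain acyl-CoAs into alkanes, the main class of wax in *Arabidopsis* shoots. CER1 had 355 FPKM in ethylene and 288 FPKM in air, a log2 fold change of 0.30 with an implied interval of 0.034 to 0.57 (Benjamini-Hochberg adjusted p = 0.193 from the authors' p). CER3 had 64.9 FPKM in ethylene and 72.9 FPKM in air, a log2 fold change of -0.17 with an interval of -0.46 to 0.12. The level of CER1 was 5.47 times that of CER3 in ethylene and 3.95 times in air. The difference between these ratios was not tested, because no library values were available. MAH1 (AT1G57750), the cytochrome P450 that oxidizes alkanes to secondary alcohols and ketones in stems, was listed at 0.141 FPKM in ethylene and 0.0168 FPKM in air and was not tested by the authors, so no fold is given.

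The alcohol-forming genes were low. CER4 (AT4G33790), the reductase that makes primary alcohols, had 7.00 FPKM in ethylene and 5.70 FPKM in air. WSD1 (AT5G37300), the wax ester synthase, had 5.24 FPKM in ethylene and 6.44 FPKM in air. Both lay below the medians of all tested rows, which were 12.5 FPKM in ethylene and 13.0 FPKM in air. The intervals of these low genes were the widest of the 9, -0.66 to 1.26 on the log2 scale for CER4 and -0.91 to 0.32 for WSD1, and neither direction could be told.

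**Figure D2:**
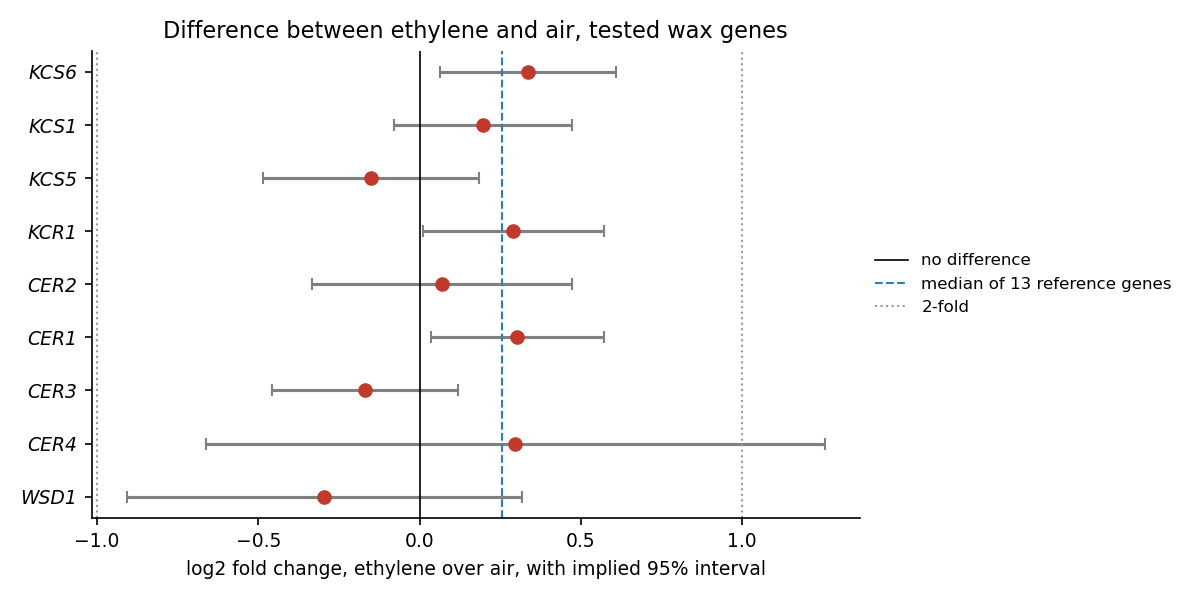
Log2 fold change, ethylene over air, of the 9 tested wax genes (points) with the 95% interval implied by the deposited p-value (bars). The dashed line marks the median of 13 reference genes, 0.25, and the dotted lines mark a 2-fold difference; the interval of CER4 alone reaches past a dotted line.

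The intervals give the size of difference that the deposited p-values imply. They may be too narrow, because those p-values may rest on technical spread only, and they leave out the choice of scaling. For 8 of the 9 tested genes the implied interval lay within a 2-fold difference in either direction, against 60.2% of tested rows with a p above the smallest deposited one. CER4 was the exception. The median implied standard error was 0.15 on the log2 scale for the 9 genes and 0.27 for all tested rows. In order of level in ethylene the genes ran KCS6, CER1, KCS1, KCR1, CER2, CER3, KCS5, CER4, WSD1 and MAH1, and in air the order was the same except that WSD1 stood above CER4. Whether neighbours in this order differ beyond the spread between libraries could not be assessed. KCS6 stood at percentile 98.8 of tested single-locus genes in ethylene and 98.4 in air, and WSD1 at percentile 30.4 in ethylene and 33.4 in air.

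Regulatory sequence of 2 members is shown because they had the smallest p-values among the 10, although neither was called. Each window is the 250 bases before the gene's annotated start in the RefSeq annotation of TAIR10.1, printed 5′ to 3′ on the gene's own strand. The deposited table holds no coordinates, so these positions are the reference's. CER1 lies at chr1:418416-422579 with 8 exons in its longest transcript, and KCS6 at chr1:25712414-25715024 with 2. The CER1 window is chr1:418166-418415 on the plus strand, and its capitals mark the reverse complement of TAAATGNA. This pattern is looser than the L1 box bound by homeodomain factors of the epidermis, so the marked bases are not called an L1 box. The KCS6 window is chr1:25715025-25715274 on the minus strand, and its capitals mark the reverse complement of TAACTA, a site bound by MYB96, an activator of wax genes.
CER1: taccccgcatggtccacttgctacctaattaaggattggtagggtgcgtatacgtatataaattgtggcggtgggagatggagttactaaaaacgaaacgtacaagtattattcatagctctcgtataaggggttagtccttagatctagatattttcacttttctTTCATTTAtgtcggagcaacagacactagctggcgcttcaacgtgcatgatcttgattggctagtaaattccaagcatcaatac
KCS6: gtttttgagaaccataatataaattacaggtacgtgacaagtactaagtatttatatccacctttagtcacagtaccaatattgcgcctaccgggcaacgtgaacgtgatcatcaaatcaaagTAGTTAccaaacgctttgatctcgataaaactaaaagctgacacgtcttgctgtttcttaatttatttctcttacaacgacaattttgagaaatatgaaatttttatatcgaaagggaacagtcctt
In all, 6 motifs were searched on both strands of all such windows.

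TAAATGNA, which is looser than the L1 box, occurred in 2 of the 10 windows, those of CER1 and WSD1. It occurred in 9.91% of 27443 windows of protein-coding genes. TAACTA occurred in 3 of 10, those of KCS6, CER2 and MAH1, against 20.6% of all windows. The other motifs were GCCGCC, the GCC box of ERF factors, CACGTG, the G-box, AACAAAC, a site bound by MYB30, and ATGNANCT. ATGNANCT, with any base at N, only approximates the site of EIN3-type factors of ethylene signalling. None of these 4 motifs occurred in the 10 windows, against 1.87%, 6.49%, 11.2% and 12.5% of all windows in that order. A match of letters is a description and not a bound site, and the absence of one says only that these letters are not in this window.

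Among the other genes of elongation, KCS12 was the 1 gene called. Of 21 genes listed as other elongase and KCS genes, 13 stood alone in a row and were tested. Of these 0 were called higher, against 2.17% of all tested rows, and 1 lower, against 4.18%. The counts were the same at an unadjusted p below 0.05, against 7.74% of all tested rows higher and 11% lower. Scaled to the reference genes, KCS19 was also called lower, and on that scale 2728 of all 18696 tested rows were. KCS12 (AT2G28630) fell to 10.4 FPKM in ethylene, against 20.5 FPKM in air (log2 fold change -0.98, Benjamini-Hochberg adjusted p = 0.00227 from the authors' smallest p). KCS10 (AT2G26250, also FDH or FIDDLEHEAD), an epidermal condensing enzyme needed to keep organs from fusing, had 317 FPKM in ethylene and 298 FPKM in air. CER10, the enoyl reductase of the complex, had 206 FPKM in ethylene and 172 FPKM in air and was not called. The dehydratase gene PAS2 lay in a row merged with AT5G10490, with 322 FPKM in ethylene and 318 FPKM in air.

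Across all 21 KCS genes, KCS6 held 26.9% of the summed FPKM in ethylene and 23.8% in air. KCS6, KCS10 and KCS1 together held 59.8% in ethylene and 57.2% in air, in the same order in both groups. A further 7 KCS genes were under 1 FPKM in both groups, among them the seed elongase gene FAE1, listed at 0 in both. KCS12 was the lowest of the 14 others in ethylene.

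**Figure D3:**
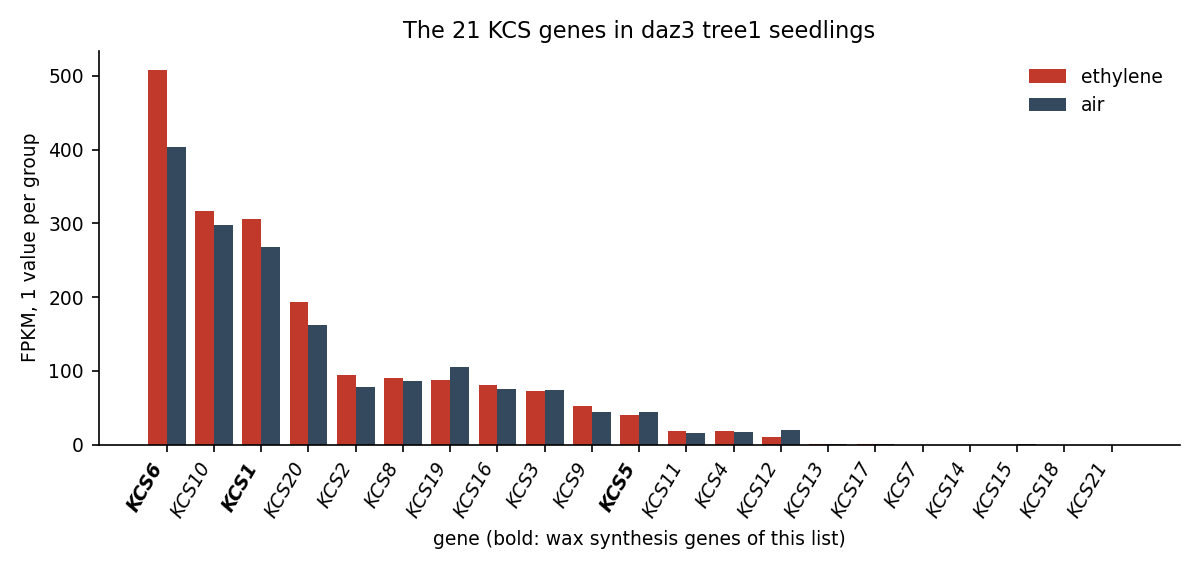
FPKM of the 21 KCS genes of *daz3 tree1* seedlings, 1 value per group (red, ethylene; dark, air), ordered by the level in ethylene. KCS6 has the tallest bars, at 508 FPKM in ethylene and 403 FPKM in air, and KCS12, the gene called lower, stands at 10.4 and 20.5 FPKM in these groups.

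Relatives of the wax genes with other roles were called lower in 2 cases. Of 12 listed relatives of CER1, CER2 and CER4 and acyl-CoA synthetases, 8 were tested. Of these 0 were called higher, against 2.17% of all tested rows, and 2 lower, against 4.18%. At an unadjusted p below 0.05, 1 was higher, against 7.74%, and 2 were lower, against 11%. On the scale of the reference genes, LACS4 was also called lower, as were 2728 of all 18696 tested rows. FAR1 (AT5G22500), a reductase of the CER4 family that makes fatty alcohols of root suberin, fell to 250.3 FPKM in ethylene, against 344 FPKM in air. Its log2 fold change was -0.46 (Benjamini-Hochberg adjusted p = 0.0213 from the authors' p), and with a trend on GC content subtracted it was -0.33 and no longer passed (adjusted p = 0.146). FAR5 (AT3G44550), also of suberin, was listed at 0 FPKM in ethylene and 0.851 FPKM in air. It was called lower, but an exact 0 can be a failed estimate and no fold is given. AT1G02190, whose coding sequence is 65.6% identical to that of CER1, was under 1 FPKM in both groups. CER26, a relative of CER2, had 4.15 FPKM in ethylene and 4.34 FPKM in air, so that CER2 had 47.1 times its level in ethylene and 42.8 times in air.

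All 5 tested genes of export had higher values in ethylene, against 48% of all tested rows and all 13 reference genes. In this list 0 were called higher, against 2.17% of all tested rows, and 0 lower, against 4.18%. LTPG1 (AT1G27950) and LTPG2 (AT3G43720), membrane-anchored lipid transfer proteins that help wax reach the surface, had log2 fold changes of 0.17 and 0.23. LTPG1 had 743 FPKM in ethylene and 662 FPKM in air, and LTPG2 had 338 FPKM in ethylene and 287 FPKM in air. The transporter gene ABCG12 (CER5), named after its values were seen, had 128 FPKM in ethylene and 105 FPKM in air. It was the 1 of the 5 with an unadjusted p below 0.05, where 7.74% of all tested rows were higher. The median log2 fold change of the 5, 0.23, turned to -0.023 when scaled to the reference genes.

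Among regulators, the repressor gene DEWAX was called lower. DEWAX (AT5G61590), an ERF-type factor that represses CER1 and other wax genes in *Arabidopsis*, fell to 8.77 FPKM in ethylene, against 23.5 FPKM in air. Its log2 fold change was -1.42 (Benjamini-Hochberg adjusted p = 0.00227 from the authors' smallest p), and the call held under every rescaling tried. CER1 had the log2 fold change of 0.30 given above, which was 0.048 when scaled to the reference genes, and was not called on either scale. Whether DEWAX and CER1 levels were linked was not tested. Of 16 listed regulators 12 stood alone in a row and were tested, with 0 called higher, against 2.17% of all tested rows, and 1 lower, against 4.18%. At an unadjusted p below 0.05, 1 was higher, against 7.74% of all tested rows, and 2 were lower, against 11%. Scaled to the reference genes 3 were called lower, DEWAX, MYB30 and AT5G07580, against 2728 of all 18696 tested rows. MYB30 (AT3G28910), an activator of very-long-chain fatty acid genes, had 45.5 FPKM in ethylene and 52.7 FPKM in air. MYB96 had 20.1 FPKM in ethylene and 17.3 FPKM in air and MYB94, another activator of wax genes, 11.9 FPKM in ethylene and 12.5 FPKM in air. MYB16, a regulator of cuticle formation, had 13.3 FPKM in ethylene and 7.88 FPKM in air (Benjamini-Hochberg adjusted p = 0.0981 from the authors' p, not called). With the GC trend subtracted its log2 fold change was 0.88 and it was called higher (adjusted p = 0.0457 from the authors' p). AT5G07580, these 3 MYB genes and the regulators given below were named after their values were seen. CER9, an E3 ligase gene, had 2 rows with opposite signs, neither called, and was left out of the counts. The wax activator SHN1 was listed at 0 in both groups. MYB41 and SHN3, whose log2 fold changes of -5.02 and 3.52 lay farthest from 0, had at most 1.43 FPKM and 0.780 FPKM in either group, and neither was called.

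**Figure D4:**
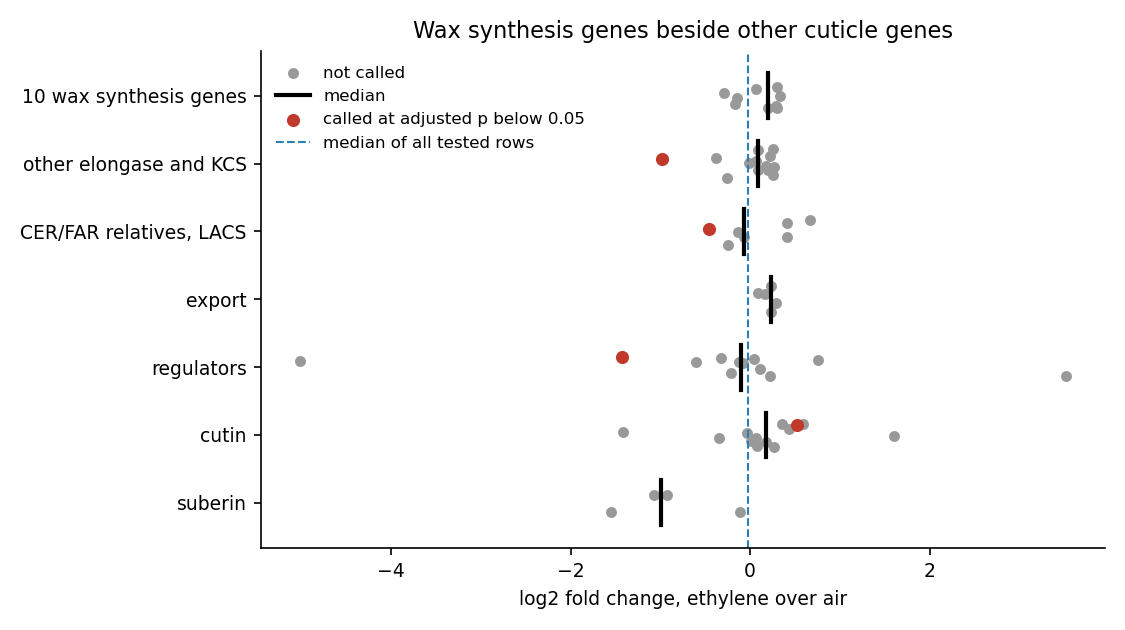
Log2 fold change, ethylene over air, of each tested gene above 0 in both groups, for the wax synthesis genes and 6 lists of other cuticle and suberin genes (grey, not called; red, called; black bars, list medians; dashed line, median of all tested rows). The wax genes all lie between -0.30 and 0.34, and the called genes above 0 in both groups are KCS12, FAR1 and DEWAX, which were lower, and CYP86A2, which was higher.

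Cutin genes build the polyester in which wax is embedded, and 1 of 13 tested was called higher, against 2.17% of all tested rows, and 0 lower, against 4.18%. At an unadjusted p below 0.05, 3 were higher, against 7.74% of all tested rows, and 0 lower, against 11%. On the scale of the reference genes, CYP86A4 was the 1 call, lower, against 2728 of all 18696 tested rows called lower. CYP86A2 (AT4G00360), a fatty acid hydroxylase of cutin synthesis, rose to 295 FPKM in ethylene, against 206 FPKM in air (log2 fold change 0.52, Benjamini-Hochberg adjusted p = 0.0221 from the authors' p). With the GC trend subtracted its value was 0.25 and it no longer passed (adjusted p = 0.402 from the authors' p), and scaled to the reference genes it was 0.26 and did not pass either. BDG1 (AT1G64670), a hydrolase-like protein needed for an intact cuticle, had 119 FPKM in ethylene and 105 FPKM in air. The list median was 0.18, and -0.072 when scaled to the reference genes.

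Suberin genes, which serve mainly roots and seed coats, had lower values in ethylene in 4 of 4 cases. Of all tested rows, 48% had the higher value in ethylene. In this list 0 were called higher, against 2.17% of all tested rows, and 0 lower, against 4.18%. At an unadjusted p below 0.05, 1 was lower, against 11% of all tested rows. ASFT (AT5G41040), a feruloyl transferase, had 7.94 FPKM in ethylene and 15.1 FPKM in air (log2 fold change -0.92, Benjamini-Hochberg adjusted p = 0.0591 from the authors' p). On the scale of the reference genes ASFT was called lower, as were 2728 of all 18696 tested rows. GPAT5 (AT3G11430), an acyltransferase, had 2.07 FPKM in ethylene and 2.24 FPKM in air. The list median was -0.997. It rests partly on low levels, as CYP86A1 had 0.614 FPKM in ethylene and 1.80 FPKM in air. CYP86B1 had 0.774 FPKM in ethylene and 1.63 FPKM in air. The implied intervals of both included no difference.

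Of 4 markers of the shoot epidermis, the tissue that makes wax, 1 was called higher and 0 lower. Of all tested rows, 2.17% were called higher and 4.18% lower. PDF1 rose to 641 FPKM in ethylene, against 450 FPKM in air. LTP1 had 693 FPKM in ethylene and 568 FPKM in air, and ATML1, which defines the epidermal layer, had 52.0 FPKM in ethylene and 48.0 FPKM in air. PDF2, a relative of ATML1, had the lower value in ethylene, 44.6 FPKM against 52.0 FPKM in air (log2 fold change -0.22). The summed level of the 4 was 1430.5 FPKM in ethylene and 1118 FPKM in air, a difference made up mainly by PDF1 and LTP1. Scaled to the reference genes, PDF1 was not called and PDF2 was called lower, against 2728 of all 18696 tested rows called lower.

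Of 5 root markers 3 were tested, with 0 called higher, against 2.17% of all tested rows, and 0 lower, against 4.18%. At an unadjusted p below 0.05 the counts were also 0, against 7.74% of all tested rows higher and 11% lower. The sum of the 5 was 4071 FPKM in ethylene and 4288 FPKM in air, and most of it was PYK10, at 3868 FPKM in ethylene and 4093 FPKM in air. CASP1 had 176 FPKM in ethylene and 170 FPKM in air, and SCR had 26.8 FPKM in ethylene and 23.8 FPKM in air. The untested COBL9 was listed at 0.154 FPKM in ethylene and 0.0860 FPKM in air. The root hair marker EXPA7, also untested, was listed at 0 in ethylene and at 0.383 FPKM in air. Of 3 listed shoot genes, PORA, RBCS1A and PHYA, 1 was called lower, against 4.18% of all tested rows, and 0 higher, against 2.17%. The called gene was PORA, a protochlorophyllide reductase gene abundant in darkness. PORA had 1147 FPKM in ethylene and 1873 FPKM in air (log2 fold change -0.71, Benjamini-Hochberg adjusted p = 0.00227 from the authors' smallest p). RBCS1A and PHYA, with log2 fold changes of 0.070 and -0.21, were not called. The part of these markers and shoot genes in the values of the wax genes was not tested.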

How the data were processed

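The 4 libraries were made from RNA of whole seedlings extracted with Trizol, with a NEB library kit, per the labels' protocols. TopHat2 2.0.9, Cuffdiff 2.0.1 and TAIR10 are named in the submitters' processing notes, without settings. The deposited values are 1 per group and were taken as FPKM because Cuffdiff is named. The p-value in the deposited table is not adjusted and is never below 5e-05; rows with a p of 1 counted as not tested. The log2 fold change, ethylene over air, was recomputed from the deposited FPKM and equalled the deposited one within 0.001 in 19947 of 19948 rows above 0 in both groups; 1186 deposited fold cells held error text.

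P-values were adjusted by Benjamini-Hochberg over 18696 named rows with a p below 1, in place of a test on libraries. The 243 rows with no gene name stayed out and held 88.9% of the summed FPKM in ethylene and 86.0% in air. A standard error was implied from each log2 fold change and its p; at the smallest p it is an upper limit. Genes, lists, motifs and rules were chosen with earlier results of these data known. The naming rule took the 10 members, called genes of 6 pathway lists, and otherwise the most highly expressed up to 2 a list. Any other gene of these lists that is named here was named after its values were seen. Genes in merged or repeated rows were left out of list counts. Alternatives were other thresholds, row sets, filters, pseudocounts, centring, scaling to 13 reference genes and subtraction of a LOWESS trend (span 0.3) on transcript GC content, which 17030 tested single-locus rows had. For centring, scaling and the GC trend, each p was recomputed from the shifted log2 fold change and the implied standard error, then adjusted. Rows without a finite log2 fold change kept the authors' p. Names, sequences and GC content came from RefSeq TAIR10.1, which held 26694 of 27383 single-locus identifiers. The calculation was tested on simulated data. Tools were statsmodels 0.14.6, scipy 1.17.1, Biopython 1.88, pandas 2.3.3, matplotlib 3.10.9 and numpy 2.4.6 under Python 3.11.15.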

Additional observations from a re-analysis of the deposited data

How the results depend on the processing

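No wax gene was called at thresholds of 0.01 and 0.10, over single-locus rows, with rows at a p of 1 included, with at least 1 FPKM, centred on the median or with the GC trend subtracted. Scaled to the reference genes, 1 wax gene was called lower, CER3 (log2 fold change -0.42, Benjamini-Hochberg adjusted p = 0.0314 from the authors' p), the median of the wax genes turned to -0.058, and 114 rows were called higher and 2728 lower. On that scale the log2 fold changes of KCS1, CER2, KCS10, LTPG1, LTPG2 and BDG1 turned to -0.058, -0.18, -0.17, -0.088, -0.021 and -0.072, and MYB30 and ASFT were called lower. Over all tested rows, 190 were called higher and 409 lower at 0.01, and 631 higher at 0.10. CYP86A2 and FAR1 lost their calls at 0.01 and with the GC trend subtracted, and CYP86A2 also when scaled to the reference genes. MYB16 was called higher with the GC trend subtracted. The cause of these changes was not tested. Pseudocounts of 1 and 0.1 turned no sign among the named genes. No paired analysis was possible because the table holds 1 value per group and no library values, and for the same reason leaving out each library was not run. Low levels limit CER4, WSD1 and MAH1 most.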
